A study of Mus musculus with 221 samples.

Results

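The heptad factors are a group of transcription factors that bind together at many regulatory elements of blood stem and progenitor cells. The members described here are Gata2, Tal1, Lyl1, Lmo2, Fli1 and Erg, found by gene symbol among the transcripts of the deposited table. They are 6 of 78001 genes and 31 of 278369 transcripts. Single cells of the aorta-gonad-mesonephros (AGM) region and of the yolk sac (YS) of untreated mouse embryos had been sorted into plates, turned into full-length complementary DNA (cDNA) by Smart-seq2, and that cDNA was later read as whole molecules on a nanopore sequencer. The cells carry the names of 9 clusters, which the study set from short reads of the same kind of cDNA, so that all genes of the cells, the 6 factors included, could have shaped the clusters, and the levels by cluster are given as a description. Hemogenic endothelium (HE), the endothelium from which blood cells bud, was represented by HE-AGM (clusters c3, early, and c4, late), HE-YSA of the YS arteries (a1, early, and a2, late) and HE-YSP of the YS plexus (b2, early, and b3, late). Early progenitors were represented by c5 in the AGM and by p1 and p2 in the YS.

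Per the study's methods, the embryos came from C57BL/6JOlaHsd males crossed with Hsd:ICR (CD-1) females and carried the reporter Runx1b-RFP, Gfi1-GFP or both, and cells were chosen by these reporters and by surface proteins. By the design text, HE cells of the AGM were sorted as KIT- and those of the YS as KIT+, and the cDNA of AGM cells came from other projects than that of YS cells, except for 3 YS-labelled cells with an AGM region or project in the library name. Tissue, sort, cDNA project and depth therefore cannot be told apart between AGM and YS cells. Stage could not be matched between them either, since most AGM cells have no stage in their labels. HE-YSA and HE-YSP shared a cDNA project. Stage is given for YS cells in the library names, as E9, E9.5 or E10.5, and for 1 of the HE-AGM cells used. The library name carries the Gfi1 sort for 47 of 52 HE-YSA cells and for 13 of 49 HE-YSP cells.

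Counts below are estimates by NanoCount, which divides a read among the transcripts it aligns to. Cells with a total of at least 17595 estimated counts were used, which left 208 of 221 cells, with 49 for HE-AGM, 52 for HE-YSA, 49 for HE-YSP, 21 in c5, 17 in p1 and 20 in p2. The median total per cell was 59311 for HE-AGM, 34484 for HE-YSA and 33297 for HE-YSP. No cells shared a barcode within a run, and no embryo is named for a cell. Each population therefore counts as 1 sample, no test was made, and the intervals, which are 95% exact Poisson or binomial intervals, cover counting error only. Of 7 endothelial markers all 7 had counts in each HE population, with a summed level of 1664 CPM (a gene's counts scaled to a common library total) for HE-AGM, 1252 for HE-YSA, 1393 for HE-YSP, against 399 in c5, 530 in p1 and 298 in p2. Of 8 early blood markers 8, 7 and 7 had counts in the HE populations in the same order, at 914, 655 and 400.1 CPM, against 1341 in c5, 1284 in p1 and 998 in p2. Markers of other cells were summed in the same way. Of 8 erythroid markers 7, 5 and 5 had counts, summing to 225, 44.6 and 26.9 CPM, with 1 c3 cell at 11877 and with Alas2 and Klf1 at 0 in HE-YSA and HE-YSP. Of 5 megakaryocyte markers 3, 2 and 2 had counts, at 6.91, 9.97 and 44.3 CPM, with Gp5 and Gp1bb at 0. Of 7 macrophage markers 2, 3 and 3 had counts, at 9.01, 11.5 and 71.2 CPM, with C1qa, C1qb and Adgre1 at 0. Most of the HE-YSP sum was Mrc1, with 107 counts (64.0 CPM) against 0 in HE-AGM and 2 in HE-YSA. In b2 the macrophage list stood at 121 CPM, with a median cell at 71.9, and in b3 at 19.5. The mesenchyme list summed to 9.61, 18.9 and 9.57 CPM and the YS endoderm list to 2.40, 3.67 and 4.79. In c5 the mesenchyme list stood at 172 CPM, all of it from 1 of its 7 genes, Dlk1. The part of these markers in the results below was not tested.

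GATA2 is a zinc-finger protein that binds GATA sites and is needed for the first blood stem cells. TAL1 and its relative LYL1 are basic helix-loop-helix proteins, which pair with E proteins such as TCF3 and TCF12 and bind the short E-box motif. LMO2 does not bind DNA itself and joins TAL1 or LYL1 to GATA factors, in a complex that also holds LDB1. FLI1 and ERG are ETS factors, expressed in endothelium as well as in blood. RUNX1, the remaining heptad factor, with its partner CBFB drives the change from HE to blood.

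Gene start windows of 4 of the 6 members were found in the RefSeq table for the GRCm38.p6 build, from 250 bases before to 50 bases after each start. Windows of Gata2 and Erg, which have several starts, and of the helix-loop-helix pair Tal1 and Lyl1 are shown in the direction of transcription. Capitals mark matches, on either strand, to GATAA (GATA factors), GGAAG (ETS factors), CANNTG (the E-box, which reads the same on both strands) and TGTGGT (RUNX factors). The Gata2 windows lie on chromosome 6 (chr6:88193641-88193940 and chr6:88198414-88198713, plus strand), with their starts 4.77 kb apart:
Gata2, upstream start: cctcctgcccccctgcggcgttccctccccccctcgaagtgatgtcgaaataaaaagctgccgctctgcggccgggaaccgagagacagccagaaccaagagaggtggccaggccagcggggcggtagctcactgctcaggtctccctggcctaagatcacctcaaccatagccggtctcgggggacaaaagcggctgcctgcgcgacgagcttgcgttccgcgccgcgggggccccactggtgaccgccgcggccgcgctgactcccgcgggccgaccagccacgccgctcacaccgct
Gata2, downstream start: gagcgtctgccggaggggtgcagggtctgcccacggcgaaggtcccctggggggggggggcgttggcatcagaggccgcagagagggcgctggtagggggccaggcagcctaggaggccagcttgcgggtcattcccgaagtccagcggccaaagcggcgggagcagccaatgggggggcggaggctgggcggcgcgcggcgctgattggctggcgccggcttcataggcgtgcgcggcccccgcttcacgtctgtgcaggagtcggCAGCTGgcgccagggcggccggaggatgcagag

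The upstream Gata2 window has none of these motifs and the downstream window has 1 E-box. Of all 32851 windows in the table, 25.4% hold the GATA motif, 71.4% the ETS motif, 72.3% an E-box and 16.8% the RUNX motif. The Erg windows chosen (chr16:95530316-95530615 and chr16:95459299-95459598, minus strand) belong to starts 71.0 kb apart:
Erg, upstream start: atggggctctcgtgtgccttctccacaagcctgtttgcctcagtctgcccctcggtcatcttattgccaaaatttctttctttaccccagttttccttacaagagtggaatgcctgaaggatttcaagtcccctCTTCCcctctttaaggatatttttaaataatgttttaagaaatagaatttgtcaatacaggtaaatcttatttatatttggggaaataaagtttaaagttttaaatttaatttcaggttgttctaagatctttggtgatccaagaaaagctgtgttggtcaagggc
Erg, downstream start: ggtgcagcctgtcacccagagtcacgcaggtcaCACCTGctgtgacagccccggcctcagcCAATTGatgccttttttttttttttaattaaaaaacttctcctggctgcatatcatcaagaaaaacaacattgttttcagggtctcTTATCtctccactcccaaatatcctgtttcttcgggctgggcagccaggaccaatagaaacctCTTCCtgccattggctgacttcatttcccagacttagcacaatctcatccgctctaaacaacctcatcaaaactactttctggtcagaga

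The upstream of these Erg windows has 1 ETS motif, and the downstream window has 1 GATA motif, 1 ETS motif and 2 E-boxes. The windows of the helix-loop-helix pair were those of Tal1 (chr4:115056176-115056475, plus strand) and Lyl1 (chr8:84701207-84701506, plus strand):
Tal1: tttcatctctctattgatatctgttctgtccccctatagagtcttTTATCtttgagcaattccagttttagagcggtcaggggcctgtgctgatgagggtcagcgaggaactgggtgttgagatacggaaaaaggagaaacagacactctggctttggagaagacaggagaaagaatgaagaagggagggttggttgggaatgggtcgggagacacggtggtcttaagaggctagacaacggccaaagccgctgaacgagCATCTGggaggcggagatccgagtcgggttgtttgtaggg
Lyl1: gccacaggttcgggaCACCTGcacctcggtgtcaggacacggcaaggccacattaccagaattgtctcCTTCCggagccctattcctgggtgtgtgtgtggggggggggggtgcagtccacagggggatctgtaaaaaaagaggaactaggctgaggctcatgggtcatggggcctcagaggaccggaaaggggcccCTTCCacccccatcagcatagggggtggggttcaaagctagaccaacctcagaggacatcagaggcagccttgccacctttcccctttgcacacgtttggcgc

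The Tal1 window shown has 1 GATA motif and 1 E-box, and the Tal1 window not shown (chr4:115057561-115057860), whose start lies 1.385 kb downstream, has 2 ETS motifs and neither of these. The Erg window not shown (chr16:95586544-95586843) has none of the motifs, and the Lyl1 window has 2 ETS motifs and 1 E-box. A match describes the letters of a window and does not show a bound site.

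Gata2 was high for HE-AGM, intermediate for HE-YSA and low for HE-YSP. Its level from summed counts was 102 CPM (interval 91.3 to 113) for HE-AGM, 53.0 CPM (43.2 to 64.4) for HE-YSA and 11.96 CPM (7.31 to 18.5) for HE-YSP. Over single cells it ranged from 0 to 380 CPM with a median of 90.9 for HE-AGM, from 0 to 331 with a median of 36.1 for HE-YSA, and from 0 to 148 with a median of 0 for HE-YSP. The cells of all populations overlapped at 0, but 1 count or more was seen in 37 of 49 HE-AGM cells, 30 of 52 HE-YSA cells and 7 of 49 HE-YSP cells. In nanopore runs 1, 2 and 3 the level was 104, 133 and 84.8 CPM for HE-AGM, 39.3, 54.0 and 65.2 for HE-YSA, and 14.01, 8.93 and 12.3 for HE-YSP, so the order of the 3 populations was the same in each run. By cluster the order was c3 (105), c4 (97.8), c5 (62.3), a2 (55.4), a1 (49.97), p2 (28.7), b3 (18.3), p1 (12.2) and b2 (5.88 CPM). Only the step from c4 to c5 had intervals that did not overlap between neighbors.

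Tal1 was largely an AGM transcript in these cells. Its level was 48.1 CPM (40.9 to 56.1) for HE-AGM, against 2.62 CPM (0.852 to 6.12) for HE-YSA and 3.59 CPM (1.32 to 7.81) for HE-YSP. Those values rest on 160, 5 and 6 estimated counts. In HE-AGM the cells ranged from 0 to 248 CPM with a median of 19.4, and 25 of 49 had at least 1 count. In the YS, 4 of 52 HE-YSA cells and 1 of 49 HE-YSP cells had at least 1 count, and that HE-YSP cell held 5 of the 6 counts and reached 162 CPM. Tal1 was highest in c4 (63.3 CPM), then c3 (37.1) and c5 (31.8), and the other 6 clusters lay between 1.18 and 12.3 CPM. The intervals separated c4 from c3 and c5 from p2, and no other neighbors in that order. In c4, 1 cell held 30.7% of the Tal1 counts, and in run 2 c4 (24.7 CPM) lay below c3 (43.8 CPM).

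Lyl1, which can take the place of TAL1 in the complex, varied least between populations. It stood at 182 CPM (168 to 197) for HE-AGM, 141 CPM (125 to 159) for HE-YSA and 136 CPM (119 to 155) for HE-YSP, and was found in 45 of 49, 42 of 52 and 41 of 49 cells. The median cell held 156, 131 and 114 CPM, and the highest cells 551, 509 and 432. The 3 ranges lay over each other. All 9 clusters fell between 121 CPM (b2) and 217 CPM (p2), and each cluster's interval overlapped that of its neighbor in the order.

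Lmo2, the bridging subunit, was higher in every AGM cluster than in any YS cluster. It measured 100.3 CPM (89.8 to 112) for HE-AGM, 22.6 CPM (16.3 to 30.4) for HE-YSA and 39.0 CPM (30.01 to 49.6) for HE-YSP. The cells of HE-AGM ranged from 0 to 318 CPM with a median of 91.7, and the median cell of both YS populations was at 0, with highest cells at 237 and 368 CPM. A count of 1 or more was seen in 40 of 49, 12 of 52 and 18 of 49 cells. The highest cluster was c5 at 177 CPM (156 to 199), above c3 (106) and c4 (92.8), with a gap between the intervals. Then came b2 (46.0), after another gap, followed by a2 (31.9), b3 (31.7), p2 (28.7), p1 (19.8) and a1 (10.7 CPM). Those last 6 overlapped their neighbors.

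The ETS genes Fli1 and Erg did not share an order. Fli1 stood at 100.3 CPM (89.8 to 112) for HE-AGM, 38.3 CPM (30.03 to 48.2) for HE-YSA and 43.7 CPM (34.2 to 54.9) for HE-YSP, and was found in 43 of 49, 18 of 52 and 21 of 49 cells. The median cell held 87.1 CPM in HE-AGM and 0 in both YS populations, and the highest cells 363, 168 and 319 CPM. Its clusters ran from 106 CPM in c3 to 15.02 in a2, and each interval overlapped the next in the order. Erg measured 48.1 CPM (40.9 to 56.1) for HE-AGM, 27.8 CPM (20.8 to 36.4) for HE-YSA and 46.1 CPM (36.3 to 57.6) for HE-YSP. Its median cell held 17.4, 0 and 0 CPM, and the highest cells 318, 257 and 381. Erg was found in 26 of 49, 12 of 52 and 19 of 49 cells, and its clusters ran from 57.3 CPM in b3 to 14.3 in a1 with every interval overlapping the next. Erg also differed between runs within a cluster, with 40.2, 67.6 and 3.32 CPM in runs 1, 2 and 3 of b2.

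**Figure D1:**
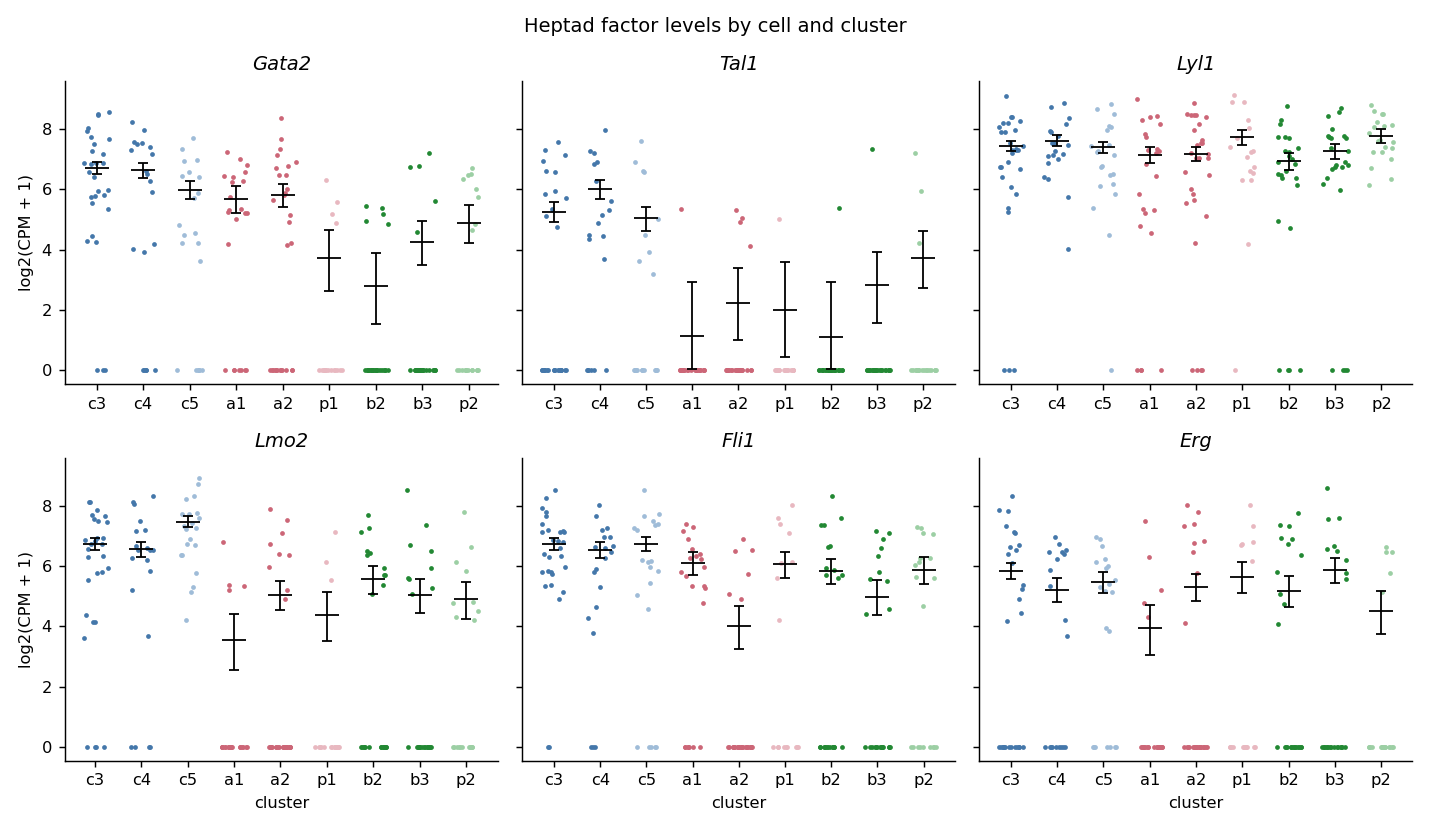
Level of each member, as log2 of CPM plus 1, by cluster. Colored points are cells, black bars give the level from summed counts with its 95% Poisson interval. Tal1 lies at 0 in most YS cells, while the Lyl1 bars stay between 121 and 217 CPM in all 9 clusters.

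Over the HE populations the 6 members were compared by the log2 ratio of CPM, with a fold of 2 in either direction as the mark. Genes with at least 20 counts over both populations were the background. Between HE-AGM and HE-YSA, 3 of 6 members lay past 2-fold, all higher in HE-AGM, and 46.0% of 11956 background genes lay past it. Of the background genes past 2-fold, 3908 were higher and 1594 lower in HE-AGM. Between HE-AGM and HE-YSP, 4 of 6 members lay past it, all higher in HE-AGM, beside 49.5% of 11848 genes. Here 4143 background genes were higher and 1719 lower in HE-AGM by more than 2-fold. Between HE-YSA and HE-YSP, 1 of the 5 members with enough counts lay past it, beside 21.6% of 9771 genes. With 6 members these shares are not set apart from the background, and nothing particular to the members is read from them. Their median log2 ratio was 1.17 and 1.28 for HE-AGM over HE-YSA and over HE-YSP, where that of all genes was 0.32 and 0.39, and -0.19 for HE-YSA over HE-YSP, where that of all genes was 0.01.

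The ratios of all genes between AGM and YS populations moved with transcript length. Genes with a count-weighted mean length of 1 to 1.5 kb had a median log2 ratio of -0.26 for HE-AGM over HE-YSA, those of 2 to 3 kb 0.53, those of 3 to 4 kb 0.98 and those of 4 kb or more 1.29. For HE-AGM over HE-YSP the medians were -0.22, 0.69, 1.07 and 1.36. For HE-YSA over HE-YSP they stayed between -0.03 and 0.09 in every length class. The count-weighted mean transcript length of a library, in the median cell, was 1477 nucleotides for HE-AGM, 1159 for HE-YSA and 1156 for HE-YSP. Each member's ratio is therefore given beside the median of the genes whose mean length lay within 10% of its own, a comparison added after the data were seen. Whether length in the libraries sets the ratios was not tested.

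For Tal1 the log2 ratio of HE-AGM over HE-YSA was 4.19 (2.94 to 5.84), where genes of like length had a median of 0.90. Over HE-YSP it was 3.74 (2.59 to 5.21) beside 1.07. In runs 1, 2 and 3 Tal1 had 34, 27 and 99 counts for HE-AGM, 3, 1 and 1 for HE-YSA, and 0, 1 and 5 for HE-YSP. Tal1 thus stood above the genes of its length in both comparisons.

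For Lmo2 the log2 ratio was 2.15 (1.69 to 2.65) over HE-YSA and 1.36 (0.98 to 1.77) over HE-YSP. Genes of its length, on average 1513 nucleotides, had medians of -0.12 and -0.04. The runs gave 1.61, 2.10 and 2.47 in the first comparison and 1.42, 1.00 and 1.54 in the second. Lmo2 is thus the shortest of the members past 2-fold and lies in a length class with little shift toward the AGM.

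For Gata2 the comparison turned on the YS population. Over HE-YSP the log2 ratio was 3.09 (2.44 to 3.82), where genes of like length had 1.014. Over HE-YSA it was 0.94 (0.62 to 1.28), where genes of like length had 0.87. Within the YS, HE-YSA lay above HE-YSP by 2.15 (1.45 to 2.92) beside 0.05 for like genes, a 4.43-fold difference, with 1.49, 2.60 and 2.41 in the runs. Within E10.5 cells Gata2 stood at 45.1 CPM in 35 HE-YSA cells and 13.2 CPM in 20 HE-YSP cells, and within E9.5 cells at 78.5 CPM in 14 and 18.2 CPM in 13 cells. Within cells whose library name carries the Gfi1 sort it stood at 54.6 CPM in 47 and 22.9 CPM in 13 cells. The Gata2 difference within the YS thus kept its direction at both of these stages and within that sort, and was smallest, at 1.25 on the log2 scale, within the sort.

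For Fli1 the log2 ratios were 1.39 (1.02 to 1.77) over HE-YSA and 1.2001 (0.83 to 1.59) over HE-YSP, where genes of like length had 0.88 and 1.03. For Erg they were 0.79 (0.33 to 1.27) and 0.06 (-0.34 to 0.47), where like genes had 0.60 and 0.74. In run 3 Erg was below 0 in both, at -0.13 and -0.21. For Lyl1 they were 0.37 (0.16 to 0.58) and 0.42 (0.20 to 0.64), beside -0.06 and 0.01. Relative to genes of like length, 2 of 6 members (Tal1 and Lmo2) stayed past 2-fold for HE-AGM over HE-YSA, and 3 of 6 (those with Gata2) for HE-AGM over HE-YSP. The share of all genes past 2-fold after the same adjustment was not computed, so these counts are not read as particular to the members. Within the YS, Erg and Lmo2 were lower in HE-YSA than in HE-YSP, by log2 ratios of -0.73 (-1.26 to -0.20) and -0.79 (-1.38 to -0.21), negative in all 3 runs but short of 2-fold. The Lmo2 difference was seen at E10.5 (17.02 against 44.6 CPM, -1.39) and not at E9.5 (41.3 against 41.6 CPM, on 20 and 16 counts). For Erg it was -0.37 at E10.5 and -1.28 at E9.5. In run 3 Erg stood at 43.5 CPM for HE-YSA and 45.96 CPM for HE-YSP, and in run 1 Lmo2 at 21.8 and 24.8 CPM. Within cells whose library name carries the Gfi1 sort, Erg stood at 29.3 and 32.0 CPM, on 52 and 14 counts. Lmo2 stood there at 24.2 and 45.8 CPM, on 43 and 20 counts. The part of sort in these differences was not tested.

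**Figure D2:**
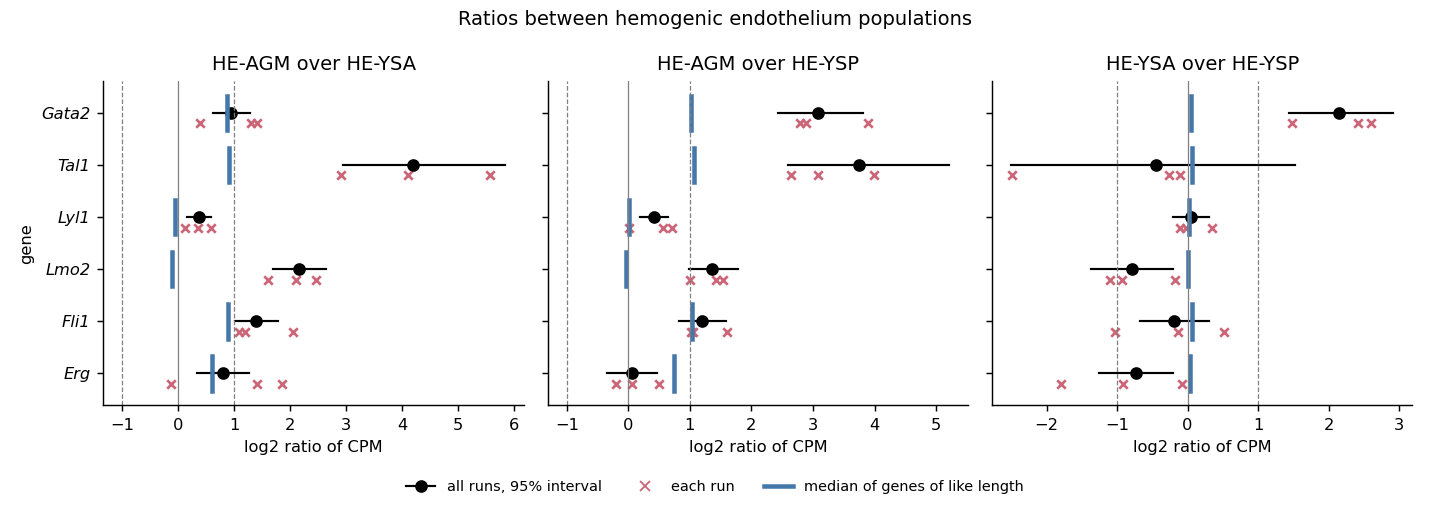
Log2 ratios of CPM between the 3 HE populations for each member. Points and lines give the ratio and its 95% counting interval, crosses the 3 runs, blue bars the median of genes of like transcript length, and dashed lines a 2-fold difference. Tal1 and Lmo2 lie to the right of the blue bars in both AGM comparisons, and Gata2 lies to the right in both comparisons with HE-YSP.

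**Figure D3:**
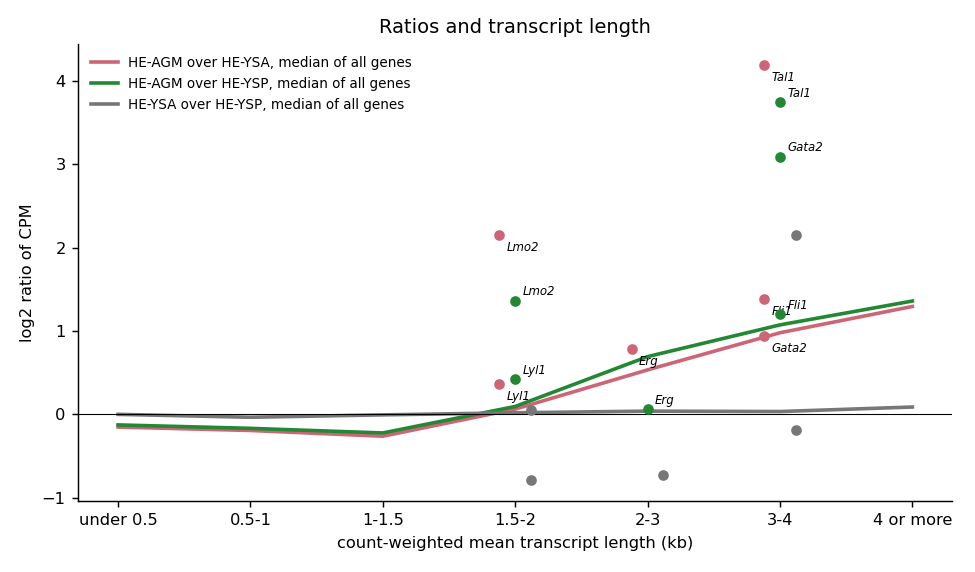
Median log2 ratio of all genes in 7 classes of count-weighted mean transcript length (lines), with the members as points. Both lines of HE-AGM rise above 1.2 in the longest class, the line of HE-YSA over HE-YSP stays near 0, and Fli1 lies at 1.39 for HE-AGM over HE-YSA, where genes of like length had 0.88.

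Between HE and progenitors the AGM and the YS are described separately. In the AGM, 0 of 6 members lay past 2-fold between c5 and HE-AGM, beside 30.2% of 11659 genes. All 7 endothelial markers, by contrast, were lower in c5 by more than 2-fold, with a median log2 ratio of -2.53. The largest member difference was Lmo2, higher in c5 by 0.82 (0.58 to 1.05), and above 0 in all 3 runs. The next was Gata2, at -0.71 (-1.05 to -0.38), with runs at -1.48, -2.93 and 0.30, so that 1 run had the opposite sign. Runx1 lay at -1.11 (-1.57 to -0.66), with 72.7 CPM in HE-AGM and 33.8 CPM in c5.

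Between p1 and HE-YSA, 1 of 5 members with enough counts lay past 2-fold, beside 31.1% of 8524 genes. This was Gata2, with 8 counts in p1 (12.2 CPM, 4 of 17 cells) against 53.0 CPM in HE-YSA, a log2 ratio of -2.12 (-3.37 to -1.09) that was negative in each run. Between p2 and HE-YSP, 2 of 5 members lay past 2-fold, beside 28.7% of 8181 genes. Here Gata2 was higher in the progenitors, at 28.7 against 11.96 CPM, a log2 ratio of 1.26 (0.31 to 2.22), on 21 and 20 counts and with run 3 at -0.28. Of the 21 counts in p2, 16 came from run 1, at 58.5 CPM, against 12.4 and 10.1 CPM in runs 2 and 3. Erg was lower, at 21.8 against 46.1 CPM, a log2 ratio of -1.08 (-1.95 to -0.29), below 0 in all runs, with p2 set to the floor of 3 counts in run 2, where it had none. Lyl1 was higher in both YS progenitor clusters, by 0.58 (0.28 to 0.89) in p1 and 0.67 (0.37 to 0.97) in p2, short of 2-fold. Its run 1 value for p1 was -0.66. The library name carries the Gfi1 sort for 5 of 17 p1 cells and 2 of 20 p2 cells, and the part of sort was not tested.

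Between early and late HE clusters, 0 of 6 members lay past 2-fold for c4 over c3, beside 26.8% of 10665 genes. The nearest was Tal1, at 0.77 (0.30 to 1.24), with runs at 0.82, -0.82 and 1.14. Over the alternatives other than single runs the Tal1 ratio ranged from -0.26 to 1.03, so its sign was not kept in all of them. Runx1 lay at 1.31 (0.92 to 1.71), from 44.9 CPM in c3 to 111 CPM in c4, above 0 in each run. For a2 over a1, 3 of 5 members did, beside 23.6% of 7596 genes. Fli1 was lower in a2, at -2.17 (-3.07 to -1.35), with 57 counts in a1 and 16 in a2, found in 14 of 23 and 4 of 29 cells, and below 0 in each run. Lmo2 was higher in a2 by 1.58 (0.49 to 2.82), on 9 and 34 counts, and 5 of the 9 came from 1 cell. Erg was higher by 1.43 (0.48 to 2.49), on 12 and 41 counts, of which 7 of the 12 came from 1 cell, with run 1 at -0.34. The ETS pair thus moved apart within HE-YSA, Fli1 down and Erg up, apart from run 1 for Erg. Library names carry the Gfi1 sort for 18 of 23 a1 cells and 29 of 29 a2 cells. Of the cells with an AGM region or project in the library name, 2 were in a1 and 1 in a2. The part of sort in the ratios of a2 over a1 was not tested.

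For b3 over b2, 1 of 5 members lay past 2-fold, beside 26.8% of 7064 genes. It was Gata2, higher by 1.64 (0.10 to 3.45), on 5 and 15 counts, and above 0 in all runs. The library name carries the Gfi1 sort for 3 of 25 b2 cells and 10 of 24 b3 cells. Stages E9, E9.5 and E10.5 had 10, 2 and 13 cells in b2 and 6, 11 and 7 in b3. The part of sort and stage in the ratios of b3 over b2 was not tested. Fli1 lay at -0.89 (-1.65 to -0.16), with 51.3, 5.09 and 28.4 CPM in runs 1, 2 and 3 of b3 against 26.8, 55.7 and 86.3 in b2. Erg lay at 0.70 (0.01 to 1.41), with 51.3, 20.4 and 82.5 CPM in b3 against 40.2, 67.6 and 3.32 in b2. For both genes 1 run had the opposite sign to the pooled value.

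Cells of the AGM held more of the members at once than cells of the YS. With a limit of 1 estimated count, the median cell held 4 of 6 members for HE-AGM, with a range of 1 to 6, and 2 of 6 for HE-YSA (0 to 5) and for HE-YSP (0 to 4). At least 4 members were found in 41 of 49 HE-AGM cells (83.7%, exact binomial interval 70.3 to 92.7), 10 of 52 HE-YSA cells (19.2%, 9.63 to 32.5) and 5 of 49 HE-YSP cells (10.2%, 3.40 to 22.2). All 6 were found in 13 HE-AGM cells. None of the YS HE cells held all 6, which allows a share of up to 5.77% for HE-YSA and 6.12% for HE-YSP, taking a count of 0 to allow 3 cells of the total. The progenitors followed their tissue, with all 6 in 6 of 21 c5 cells and in 0 of 17 p1 and 0 of 20 p2 cells.

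Depth differs between the tissues, so each cell was also thinned to 17000 counts. The median then stayed at 4 in HE-AGM and at 2 in both YS populations. At least 4 members were found in 28 of 49 (57.1%, 42.2 to 71.2), 6 of 52 (11.5%, 4.35 to 23.4) and 2 of 49 cells (4.08%, 0.498 to 13.98). All 6 remained in 5 HE-AGM cells. Thinned to 28000 counts, with 33 HE-YSA and 32 HE-YSP cells deep enough, at least 4 members were found in 35 of 49, 4 of 33 and 5 of 32 cells. Equal totals thus lowered the share in the AGM and left the order of AGM above YS. Equal totals do not equalize the length of the transcripts read, and the part of that difference was not tested. Most background genes past 2-fold were also higher in HE-AGM than in the YS populations, as given above. Detection per cell over all genes was not computed, so the excess in the AGM is not read as particular to the members.

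**Figure D4:**
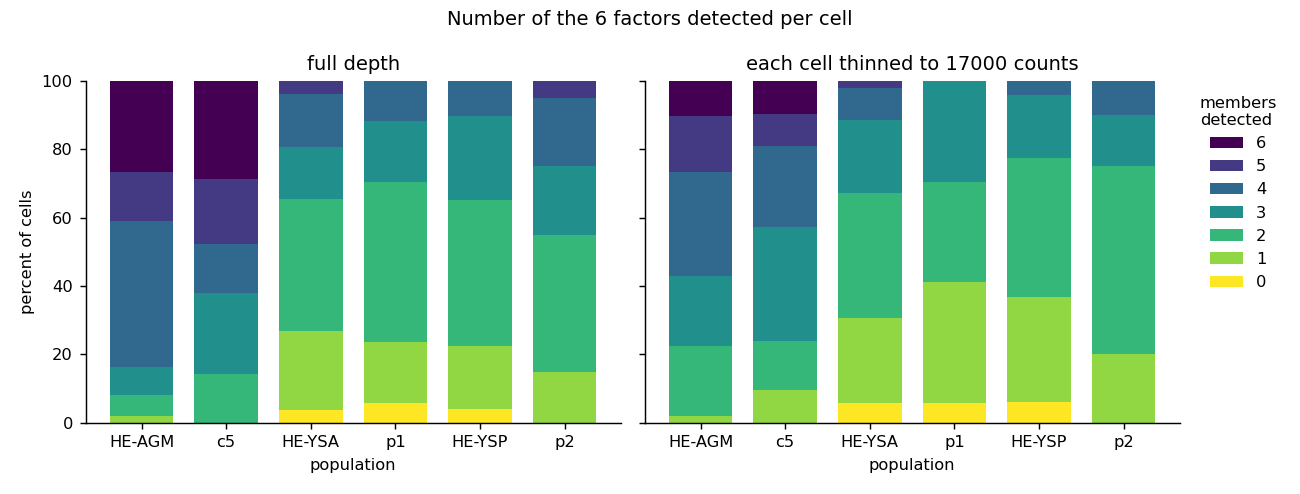
Share of cells in which 0 to 6 of the members were found with at least 1 count, at full depth and with each cell thinned to 17000 counts. Dark bands, which mark 5 or 6 members, reach 40.8% of HE-AGM cells at full depth and 26.5% after thinning, and at most 5.00% in any YS population.

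The pairs that form the DNA-bound complex showed where the sets differed. Tal1 was never found without Lyl1 in HE, apart from 1 HE-YSP cell. In HE-AGM, 25 cells held both and 20 held Lyl1 alone, whereas for HE-YSA 4 held both and 38 Lyl1 alone, and for HE-YSP 0 held both and 41 Lyl1 alone. Lyl1 and Lmo2 were found together in 38 of 49 HE-AGM cells, 9 of 52 HE-YSA cells and 16 of 49 HE-YSP cells. Gata2 with Lyl1 was found in 35, 23 and 7 cells, and Gata2 with Lmo2 in 32, 8 and 4 cells. The ETS pair Fli1 and Erg was found together in 22, 4 and 8 cells. The most common pair of HE-YSA was Gata2 with Lyl1, and that of HE-YSP was Lyl1 with Fli1, in 18 cells. These counts follow the number of cells that hold each gene, and no pairing beyond that was tested.

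Long reads also gave the transcripts of each gene. Transcript fractions were taken from summed counts, and a gene was counted as shifted where any of its transcripts differed by more than 0.1 between populations, for genes with at least 100 counts in both. Between HE-AGM and HE-YSA, 2 of the 2 members with enough counts were shifted (Gata2 and Lyl1), beside 54.4% of 2031 genes. Between HE-AGM and HE-YSP, 1 of 1 (Lyl1) was, beside 50.9% of 1795 genes. Between HE-YSA and HE-YSP, 0 of 1 (Lyl1) was, beside 14.5% of 1715 genes. With so few members eligible, nothing is read from these counts beyond the values themselves.

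For 3 members a pair of transcripts had identical values in every cell, so that reads had been divided equally between them and the pair cannot be told apart in these data. In the GENCODE M21 annotation these pairs share their last bases and differ in where they start. Gata2-201 and Gata2-202 start 4.44 kb apart and end 2 nucleotides apart, and held 262 counts each. Lmo2-202 and Lmo2-208 held 254 counts each, and the start of Lmo2-202 lies 12.2 kb after that of Lmo2-208. Erg-207 and Erg-208 held 133 counts each and start at or near the downstream and upstream Erg windows printed above. The choice of promoter of Gata2, Lmo2 and Erg is therefore not resolved by the deposited values, and each pair is summed below.

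Erg showed the widest difference between tissues. Erg, as well as Lmo2, Fli1 and Tal1, had fewer than 100 counts in each YS population and was not counted for shifts above. Erg-207 and Erg-208 each had at least 1 count in 23 HE-AGM cells, 2 HE-YSA cells and 3 HE-YSP cells. Runs 1, 2 and 3 of HE-YSA held 9, 12 and 32 Erg counts. Erg-207 with Erg-208, the transcripts of 3062 and 3249 nucleotides, held 95.6% (91.2 to 98.2) of 160 counts for HE-AGM, 30.2% (18.3 to 44.3) of 53 for HE-YSA and 35.1% (24.5 to 46.8) of 77 for HE-YSP. Erg-204, of 1519 nucleotides, held 4.38% for HE-AGM, with at least 1 count in 1 cell, against 54.1% for HE-YSA and 41.8% for HE-YSP, with at least 1 count in 8 cells of each. In runs 1, 2 and 3 the long pair held 100%, 100% and 88.5% for HE-AGM, 11.1%, 16.7% and 40.6% for HE-YSA, and 23.1%, 38.1% and 43.3% for HE-YSP. The 2 ranges do not overlap between AGM and YS. In c5 the long pair held 87.7% of 65 counts, in p1 40.6% of 32 and in p2 0% of 16, which leaves a share of up to 20.6% within the interval. In p1 the runs spread from 0% to 100%. In M21 the long pair ends 1476 nucleotides beyond Erg-204, at the last annotated end of the gene. Erg-202, of 1368 nucleotides, held 15.99% in HE-YSP and 9.14% in HE-YSA.

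Gata2-201 with Gata2-202 held 96.2% (93.5 to 97.9) of Gata2 for HE-AGM and 69.8% (60.4 to 79.0) for HE-YSA. The remainder in HE-YSA was mainly Gata2-204, a retained-intron transcript of 841 nucleotides, at 17.1% (10.1 to 25.6), and Gata2-203, a 423-nucleotide transcript whose coding end is not annotated, at 13.1% (7.04 to 21.004). The share of the long pair in the HE-YSA runs was 57.4%, 92.3% and 64.6%, so run 2 lay close to HE-AGM. HE-YSP had 20 Gata2 counts in all, 80.0% of them from the long pair. Lyl1-201, of 1714 nucleotides, held 94.1% (91.9 to 95.8) for HE-AGM, 79.1% (73.8 to 83.9) for HE-YSA and 78.0% (72.1 to 83.3) for HE-YSP. The short Lyl1-203, of 743 nucleotides, held 4.61%, 13.6% and 13.2%. The Lyl1-201 share of HE-AGM and HE-YSA was 86.9% and 81.4% in run 1, 95.1% and 89.8% in run 2, and 97.5% and 67.03% in run 3, so the gap was widest in run 3.

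Lmo2-202 with Lmo2-208 held 70.7% (65.5 to 75.5) of 334 counts for HE-AGM, 40.8% (27.01 to 57.9) of 43 for HE-YSA and 51.3% (38.1 to 63.4) of 65 for HE-YSP, while Lmo2-203 held 16.96%, 45.8% and 28.6%. These Lmo2 transcripts are of like length, at 1706, 1529 and 1654 nucleotides, and end within 23 nucleotides of each other in M21. Fli1-201, of 3318 nucleotides, held 93.7%, 90.4% and 87.7% of Fli1, and the 878-nucleotide Fli1-202 the rest, at most 12.3%. Tal1-201 held 70.0% of 160 counts in HE-AGM and the 683-nucleotide Tal1-202 26.3%, with too few YS counts to compare.

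**Figure D5:**
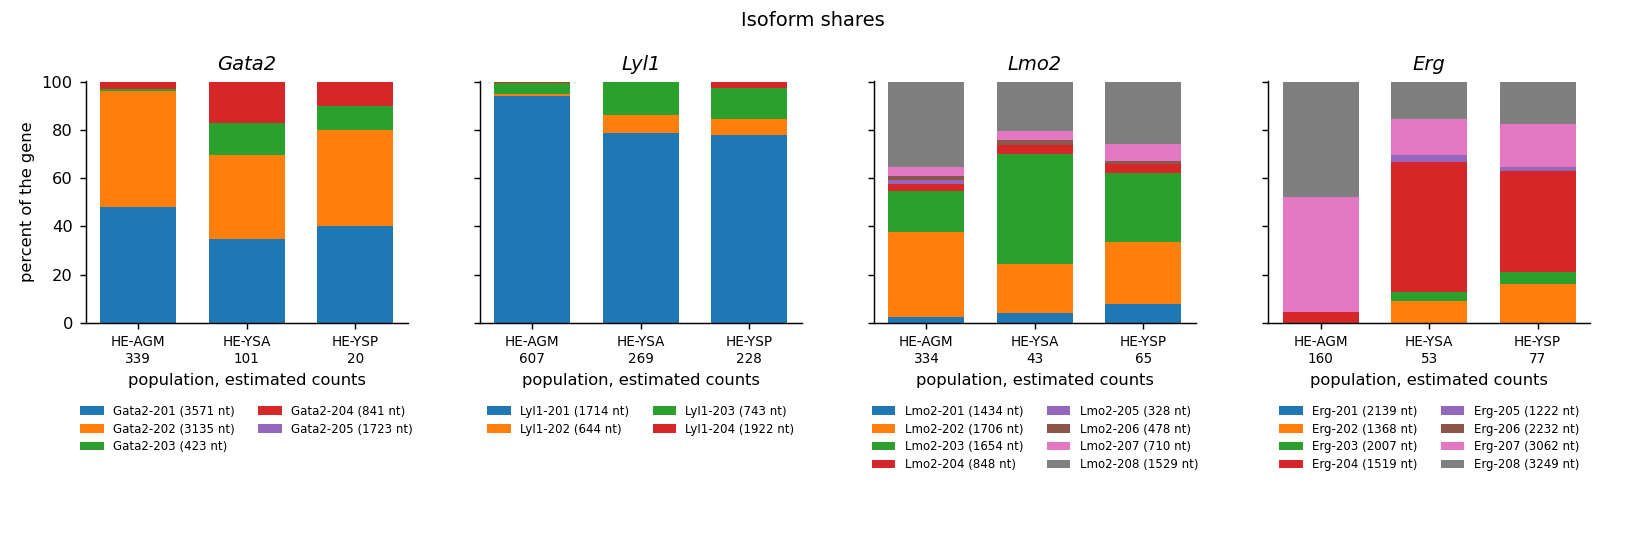
Share of each annotated transcript in the counts of Gata2, Lyl1, Lmo2 and Erg in the 3 HE populations, with the estimated counts of the gene under each bar and transcript lengths in the key. The Erg bar of HE-AGM is filled to 95.6% by Erg-207 and Erg-208, which hold 30.2% and 35.1% in the YS.

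For Erg, Gata2 and Lyl1 the transcript that gained share in the YS was the shorter. The count-weighted mean length was 3084 nucleotides for Erg for HE-AGM against 2009 and 2088 for HE-YSA and HE-YSP, 3252 for Gata2 against 2540 and 2809, and 1657 for Lyl1 against 1504 and 1520. Lmo2 (1522, 1542 and 1504) and Fli1 (3165, 3084 and 3017) differed less. Of 2031 genes with enough counts, 70.7% had a longer mean for HE-AGM than for HE-YSA, with a median difference of 3.03%. Of 1795 genes, 72.8% had one in HE-AGM against HE-YSP, with a median of 2.78%. For HE-YSA against HE-YSP, 49.5% of 1715 genes did. A shift to shorter transcripts thus ran through the YS libraries as a whole, and its part in the isoform values of the members was not tested.

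Partners of TAL1, LYL1 and LMO2 (Ldb1, Tcf3, Tcf4, Tcf12, Ssbp2, Ssbp3, Ssbp4, Cbfa2t3 and Gata1) were placed beside the members. Cbfb, whose protein pairs with RUNX1, was on the same list. Of the 9 genes on this list with enough counts, 5 lay past 2-fold for HE-AGM over HE-YSA and 4 over HE-YSP. All were higher in HE-AGM, as were most background genes past 2-fold, and the shares were near the backgrounds given above. The largest were Cbfb, the partner of RUNX1, at 1.63 over HE-YSA, and Ssbp3, which steadies LDB1, at 2.57 over HE-YSP. Cbfa2t3, the corepressor ETO2, stood at 159 CPM for HE-AGM, 73.5 for HE-YSA and 32.3 for HE-YSP, the same order as Gata2. Within the YS, Ssbp2 (1.26) and Cbfa2t3 (1.19) were higher for HE-YSA and Tcf4 (-1.10) for HE-YSP. In c5 against HE-AGM, 2 of 9 were lower (Cbfa2t3 at -1.54 and Tcf4 at -1.29). In p1 against HE-YSA 4 of 9 were lower, led by Tcf3 at -2.12, and in p2 against HE-YSP 2 of 9, led by Tcf4 at -2.04. Between early and late HE, 0, 2 and 2 of 9 lay past 2-fold for c4 over c3, a2 over a1 and b3 over b2. Among all genes, 30.2%, 31.1% and 28.7% lay past 2-fold in either direction for c5, p1 and p2, most of them lower. For c4 over c3, a2 over a1 and b3 over b2 these shares were 26.8%, 23.6% and 26.8%.

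Among relatives from the same families (Gata1, Gata3, Tal2, Lmo1, Lmo4, Etv2, Etv6, Ets1, Ets2, Elk3 and Spi1), 5 of 9 were higher by more than 2-fold for HE-AGM than for HE-YSA and 3 of 9 than for HE-YSP, beside 46.0% and 49.5% of all genes past 2-fold in either direction. In the counts of the lists, higher and lower mean by more than 2-fold. Spi1, which encodes the myeloid and lymphoid factor PU.1, led by counts, with 195 CPM for HE-AGM, 54.6 for HE-YSA and 41.9 for HE-YSP. Lmo4 differed by 2.22 over HE-YSA, on 98 and 12 counts. Within the YS, Ets2 (-1.40) and Lmo4 (-1.25) were lower in HE-YSA. In c5 against HE-AGM, 4 of 8 relatives were lower, with Ets1 at -3.12 and Elk3 at -1.58. In p2 against HE-YSP, 5 of 7 were lower, with Ets2 at -4.36 on 6 and 281 counts and Ets1 at 0 counts against 89, at least 12.997-fold lower with p2 set to the floor of 3 counts over the group. In p1 against HE-YSA 3 of 6 were lower and Spi1 was higher at 1.25. For b3 over b2, 5 of 7 were lower, with Ets2 at -2.19, Ets1 at -2.14 and Elk3 at -1.83, and 2 higher, with Spi1 at 1.476. For c4 over c3 and a2 over a1, 3 of 8 and 3 of 6 lay past 2-fold, led by Gata3 at -4.98 (44 counts in c3 and 1 in c4, interval -10.32 to -2.43) and Ets1 at -1.80. Among all genes, 26.8% and 23.6% lay past 2-fold in these comparisons. Lower by more than 2-fold were 2624 of 11659 genes in c5, 1801 of 8524 in p1 and 1540 of 8181 in p2. For b3 over b2, 924 of 7064 genes were lower and 966 higher by more than 2-fold. The counts of the list were not compared with these by a test. The ETS relatives Ets1, Ets2 and Elk3 were among those lower in p2 than in HE-YSP by more than 2-fold, Elk3 being named after its value was seen. The other ETS relatives on the list, Etv2, Etv6 and Spi1, were not past 2-fold there or had too few counts. Of the ETS members Erg was lower, at -1.08, while the ratio of Fli1 was 0.39 (-0.19 to 0.96). No pattern of the ETS family as a whole is read from these values.

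Genes often used to study the heptad through their regulatory elements (Hhex, Cdh5, Tek, Kdr, Eng, Gfi1, Gfi1b, Spi1, Meis1, Smad6 and Cbfa2t3) gave 5 of 11 past 2-fold for HE-AGM over HE-YSA, all higher, with Smad6 at 1.90 and Cdh5, the endothelial cadherin, at 1.56. Among all genes 46.0% lay past 2-fold in this comparison and 49.5% over HE-YSP, most of them higher in HE-AGM. Over HE-YSP 6 of 11 were higher and Gfi1b lower, with Smad6 at 2.78 and Gfi1 at 2.45. For HE-YSA over HE-YSP 2 were higher (Gfi1 at 2.502 and Cbfa2t3) and 2 lower (Gfi1b at -1.03 and Kdr at -1.02). Gfi1 carried the sort reporter, and more HE-YSA than HE-YSP cells came from that sort. In the progenitors, 8 of 11 were lower in c5, 8 of 11 in p1 and 6 of 10 in p2 by more than 2-fold, beside 30.2%, 31.1% and 28.7% of all genes past 2-fold in either direction, among them Tek (-2.56 in c5) and Cdh5 (-3.03 in p1 and -5.35 in p2), while Gfi1b was higher at 3.22 in c5, 2.27 in p1 and 1.98 in p2, the last named after its value was seen. For c4 over c3, a2 over a1 and b3 over b2, 4 of 11, 5 of 11 and 5 of 10 lay past 2-fold, with Kdr lower at -2.54, -1.88 and -3.35 and Gfi1b higher at 1.43, 2.24 and 4.202. Of all genes, 26.8%, 23.6% and 26.8% lay past 2-fold in these comparisons. Of the members, 0 of 6, 1 of 5 and 2 of 5 lay past 2-fold in c5, p1 and p2, and the counts of list and members were not compared by a test.

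Over the 9 clusters, the genes whose level was most like that of each member were named by Pearson correlation of log2 of CPM plus 1, among genes with a mean of at least 10 CPM. With 9 points that share tissue, cDNA project and depth, chosen from 8249 genes, high values are easily found, and they are given as a description. By Spearman correlation only 2 of the 18 genes named would be named again. For Gata2 they were Msl1 (0.97), Serf1 (0.96) and Spag9 (0.96), for Tal1 Pbk (0.98), Kansl2 (0.98) and Vcp (0.97), and for Lyl1 Mybbp1a (0.94), Ttc27 (0.94) and Trip13 (0.93). For Lmo2 they were Gm10275 (0.96), Syk (0.96) and Aldh1a3 (0.96), for Fli1 Smarcal1 (0.97), Uvrag (0.94) and Fkbp5 (0.93), and for Erg Stk11ip (0.95), Depdc5 (0.95) and Socs5 (0.92). Among the members, the highest value was 0.81 for Tal1 with Lmo2, followed by 0.71 for Gata2 with Tal1, and the lowest was -0.05 for Gata2 with Erg. Of Runx1, which was not a member here, the level was 72.7 CPM (63.8 to 82.4) in HE-AGM, 22.6 (16.3 to 30.4) in HE-YSA and 10.2 (5.92 to 16.3) in HE-YSP, the order seen for Gata2, although in run 1 HE-YSP (28.01) stood above HE-YSA (15.999 CPM).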

How the data were processed

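The deposited values are NanoCount's estimated counts for each transcript in each cell, which the authors left unscaled in this table. Before that, per the methods, the authors basecalled, trimmed adapters, removed chimeric reads and aligned to GENCODE transcripts with Minimap2 2.26, keeping up to 10 alignments per read.

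Estimated counts were summed by gene symbol over cells with a total at or above the median minus 1 scaled median absolute deviation. CPM is the summed count over the summed total. Ratio intervals are exact conditional binomial, and a group at 0 was raised to 3 counts. Values were rounded for intervals, thinning and size factors. Named genes are the members, Runx1, and from 3 lists up to 4 genes with the largest ratios. Members and lists were chosen with earlier results of these data known. The ratio was tested on simulated data. Windows are from RefSeq, and transcript ends from GENCODE M21, which held 28 of the members' 31 transcripts, 27 at the same length; the files use another release. Alternatives changed scaling, cell limits, runs, depth and isoform limits. Software comprised R 4.3.3 with DESeq2 1.42.0, and Python 3.11.15 with pandas 2.3.3, scipy 1.17.1 and numpy 2.4.6.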

Additional observations from a re-analysis of the deposited data

How the results depend on the processing

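Of 652 recomputed member ratios, 587 moved by less than the SD between the 3 runs, 63 moved further and 2 that lay past 2-fold changed sign: Gata2 for p2 over HE-YSP in run 3 alone (-0.28) and Erg for a2 over a1 in run 1 alone (-0.34). The cause was not tested. The single-run ratios were among the 652 and also set that SD, so a ratio that varied between runs had a wider limit. A sign change of a ratio short of 2-fold was not counted as such. Counts of members past 2-fold changed as follows. For HE-AGM over HE-YSA there were 5 with DESeq2 size factors, in run 1 and in run 2, 4 with a mean over cells and with protein-coding transcripts only, and 2 relative to like length. For HE-AGM over HE-YSP there were 3 in run 2, with thinned cells and relative to like length. For HE-YSA over HE-YSP there were 3 in run 1, and 2 in run 2, within E10.5 and within E9.5. For c5 over HE-AGM there were 2 in run 1, 3 in run 2, and 1 with a mean over cells and with thinned cells. For p1 over HE-YSA there were 2 in run 1, in run 3 and relative to like length. For p2 over HE-YSP there was 1 in run 1, with thinned cells and relative to like length, and 0 in run 3. For c4 over c3 there was 1 in run 1 and relative to like length, and 2 in runs 2 and 3. For a2 over a1 there was 1 in run 1, and 2 in run 3 and with thinned cells. For b3 over b2 there were 2 in runs 1 and 2 and with the limit set on the log scale, and 4 in run 3. The median number of members per cell became 5.5 for HE-AGM in run 3 and 3 for HE-YSA at 28000 counts. Isoform shifts for HE-AGM against HE-YSA became 0 of 2 with a limit of 0.2 (beside 25.9% of all genes), 0 of 1 in runs 1 and 2 (58.3% and 55.7%), 3 of 4 in run 3 (60.02%) and 4 of 5 with at least 30 counts (62.1%). Those for HE-AGM against HE-YSP became 0 of 1 with a limit of 0.2 (23.5%), 3 of 4 with at least 30 counts (59.2%) and 2 of 3 in run 3 (60.3%). Those for HE-YSA against HE-YSP became 2 of 4 with at least 30 counts (33.7%), 1 of 1 in run 1 (33.04%) and 2 of 3 in run 3 (34.1%).

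DESeq2 size factors moved the median log2 ratio of all genes by 0.23 for HE-AGM over HE-YSA and 0.24 over HE-YSP, and totals without processed pseudogenes and ribosomal protein genes by -0.11 and -0.12. The like-length ratio, the Gfi1-named cells, the merged transcripts and the removal of the c3 cell were chosen after seeing the data. Tal1 in the YS rests on 5 and 6 counts. No paired analysis was possible because no embryo is named and each population is 1 sample.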
